A study of Homo sapiens with 12 samples.

Results

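Complement is described here by 9 of the 58735 genes in the count table of HK-2 cells, chosen by their symbols, each of which was found on 1 gene. They were the components C3, CFB, C1R and C1S, the secreted regulators CFI and SERPING1, and the membrane-bound regulators CD46, CD55 and CD59. The study sequenced poly(A) RNA of 12 HK-2 samples to compare 3 drugs that injure the kidney tubule. The control group (n = 3) received water (labelled H2O), and the other groups (n = 3 each) received for 48 h iohexol at 75 mg I/mL, an iodinated contrast medium, cisplatin at 5 μM, a platinum anticancer drug, or vancomycin at 4 mM, a glycopeptide antibiotic. HK-2 is an immortalized human line of proximal tubular epithelial cells, so all samples come from 1 line in culture. Nothing in the labels says that the 3 samples of a group came from separate cultures, so p-values measure the spread between these samples, which may be technical.

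Complement is a cascade of serum proteases and binding proteins that marks targets for removal and can form a pore in membranes. In the classical pathway, the proteases C1r and C1s are held on C1q, C1r activates C1s, and C1s cleaves C4 and C2. In the alternative pathway, factor B (CFB) joins fragments of C3 to make a convertase that cleaves more C3, the protein on which all the pathways meet. C1 inhibitor (SERPING1) blocks C1r and C1s, and factor I (CFI) cuts the active fragments of C3 and C4, with CD46 as one of its cofactors. CD55 speeds the decay of the convertases and CD59 stops the assembly of the membrane pore, and both are held to the cell surface by a glycosylphosphatidylinositol (GPI) anchor. The liver makes most serum complement, and tubular epithelial cells of the kidney are a known local source of C3 and factor B.

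Libraries held 14057282 to 18177109 counts. Levels are given as CPM, the count per 1000000 counts of a library after scaling by factors of the trimmed mean of M-values (TMM). The floor used here for a gene that is not seen was 3 counts. It came to 0.165 to 0.213 per 1000000 counts before the TMM scaling. Differences are given as log2 fold changes from edgeR's quasi-likelihood test with Benjamini-Hochberg adjustment over all genes tested. A gene was called at an adjusted p under 0.05, and it is named a differentially expressed gene (DEG) where its log2 fold change was also above 1 or below -1. The study used the same fold limit with a p that its text does not call adjusted. Of the defining proximal tubule genes, the endocytic receptors LRP2 and CUBN had 0 to 3 and 7 to 33 counts and the phosphate transporter SLC34A1 had 1 to 11 in the 12 samples, while the epithelial keratin KRT8 had 5435 to 14536 and the brush border enzyme GGT1 1677 to 6184. The 10 epithelial and tubular markers together gave 953 to 1078 CPM in the control samples. They gave 834 to 987 CPM in the iohexol samples, 1379 to 1434 in the cisplatin samples and 1602 to 1709 in the vancomycin samples. Without the keratins KRT8 and KRT18 the control samples had 334 to 378 CPM and the iohexol samples 353 to 385. The cisplatin samples then had 228 to 246 and the vancomycin samples 525 to 546. With cisplatin ANPEP, MME and EPCAM fell (log2 -1.57, -1.10 and -1.51), KRT8 and KRT18 rose (0.77 and 0.90) and GGT1 was not called. With iohexol ANPEP (1.75), CUBN (1.48) and MME (0.70) rose and KRT18 fell (-0.42). With vancomycin GGT1 (0.89), MME (0.53), AQP1 (1.67), KRT8 (0.69) and KRT18 (0.74) rose and EPCAM fell (-0.44). Of 9 markers of leukocytes, hepatocytes and endothelium, PTPRC, CD68, LYZ, ALB, APOA1 and CDH5 had 0 to 5 counts in every sample. The list together gave 14.6 to 17.7 CPM in the control samples, 12.1 to 16.8 in the iohexol samples, 10.7 to 11.6 in the cisplatin samples and 13.0 to 17.9 in the vancomycin samples, nearly all of it from CSF1R, CD14 and PECAM1. Within this sum, CD14 rose (log2 1.803) and PECAM1 fell (-3.87) with vancomycin, both rose with iohexol (1.14 and 1.54), and CSF1R fell with cisplatin (-0.82). Some of these markers passed the filter at 10 counts only through the group in which they were high, so their calls are not independent of it. They were CD14 with vancomycin and iohexol, PECAM1 with vancomycin, ANPEP with cisplatin, CUBN with iohexol and AQP1 with vancomycin. The part of these markers in the complement results was not tested.

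All 8 members that could be tested against Control rose with vancomycin, and 6 of them were DEGs. The test called 29.0% of all genes higher and 28.8% lower in this comparison, and 10.8% were DEGs with higher levels. The samples of the 2 groups did not overlap for any of the 8, as for 63.2% of all genes. The median log2 fold change of the 8 was 2.02, against -0.01 over all genes tested. With cisplatin 6 members were tested, of which CD55, C1R and C1S rose and C3, CD46 and CD59 fell, where 59.8% of all genes were called, 29.2% higher and 30.6% lower, and 7.62% were DEGs with higher levels. CD55 was the DEG, and the samples of all 6 members were apart from the controls, as for 65.1% of all genes. With iohexol 7 members were tested and CFB and CD55 rose, where 21.0% of all genes were called, 11.2% higher and 9.77% lower, and 4.02% were DEGs with higher levels. CFB was the DEG, and the same 2 members had samples apart from the controls, as for 37.9% of all genes. CFB reached the 10-count filter against Control only through the iohexol or vancomycin samples, in which it was high, so its calls are not independent of that filter. SERPING1 passed it in no comparison. The comparisons share the 3 control samples.

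C1R and C1S encode the paired proteases that start the classical pathway. They lie next to each other at chr12:7080199-7092607 (minus strand) and chr12:6988259-7071032 (plus strand) of GRCh38, with their 3′ ends facing and 9166 bases between them. C1R was at 10.8, 11.9 and 14.2 CPM in Control replicates 1 to 3, at 11.4, 14.0 and 9.82 with iohexol, at 19.1, 16.6 and 16.9 with cisplatin, and at 132, 138 and 152 with vancomycin. The vancomycin samples stood far above all others, the cisplatin samples lay just above the controls, and the iohexol samples overlapped the controls. C1R rose 11.1-fold with vancomycin (log2 3.47 ± 0.11 SE, adjusted p = 2.43e-17) and 1.42-fold with cisplatin (log2 0.51 ± 0.12 SE, adjusted p = 0.00189). With iohexol its log2 fold change was -0.05, with a 95% interval from -0.41 to 0.32.

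C1S was at 20.2, 26.2 and 25.1 CPM in Control, at 24.4, 21.9 and 18.8 with iohexol, at 32.2, 32.2 and 36.4 with cisplatin, and at 228, 249 and 256 with vancomycin. Its order was that of C1R, with the iohexol samples overlapping the controls and those of the other drugs above them. C1S rose 9.95-fold with vancomycin (log2 3.31 ± 0.11 SE, adjusted p = 1.31e-17) and 1.41-fold with cisplatin (log2 0.49 ± 0.10 SE, adjusted p = 0.000566), while its log2 fold change with iohexol was -0.12 (95% interval -0.42 to 0.19). Per kilobase of exon, C1S RNA stood at 1.77 ± 0.205 times the C1R level in Control (SD, n = 3), 1.71 ± 0.263 times with iohexol, 1.76 ± 0.216 times with cisplatin and 1.58 ± 0.0550 times with vancomycin. These ratios overlapped between groups. 

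Part of the C1R exons, 11.4%, is shared with its neighbour C1RL, and 3.54% of the C1S exons with EMG1. When the reads counted on these neighbours were added to each gene, the log2 fold changes with vancomycin were 2.87 for C1R and 2.12 for C1S. Both were still called, and the value for C1S moved by more than 1.5 times. With cisplatin C1R moved by more than 1.5 times, to 0.29 (adjusted p = 0.0187), and C1S was at 0.37. All counts of each neighbour were added, not only those on shared exons. EMG1 had 563 to 691 counts in Control and 769 to 817 with vancomycin, where C1S had 278 to 417 and 3638 to 4161. These sums dilute the change of C1S with vancomycin whatever reads the shared exons hold, and the share of such reads was not measured.

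C3 was the most abundant member in CPM and per kilobase in the vancomycin samples. The gene lies at chr19:6677704-6730562 on the minus strand. It was at 318, 344 and 362 CPM in Control, at 367, 426 and 322 with iohexol, at 274, 265 and 273 with cisplatin, and at 1091, 978 and 1143 with vancomycin. The cisplatin samples were all below the controls and the vancomycin samples all above them, and the iohexol samples overlapped the controls. C3 rose 3.05-fold with vancomycin (log2 1.61 ± 0.09 SE, adjusted p = 2.78e-13) and decreased by 0.34 on the log2 scale with cisplatin (± 0.06 SE, adjusted p = 9.57e-05). The decrease with cisplatin was not called when libraries were scaled by their totals alone (log2 -0.12, adjusted p = 0.0922), a scaling that moved the median of all genes by 0.22 in this comparison. With iohexol the log2 fold change was 0.14 (95% interval -0.09 to 0.37). Without Iohexol replicate 3 it was 0.24 and was called (adjusted p = 0.0437).

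CFB, at chr6:31945650-31952084 on the plus strand, was low in Control and showed the largest fold change of the members with vancomycin. The counts were 7, 6 and 9 in Control, 24, 43 and 20 with iohexol, 17, 22 and 6 with cisplatin, and 205, 200 and 228 with vancomycin. Every iohexol and vancomycin sample exceeded every control sample, and the cisplatin samples lay on both sides of the controls. In CPM the means were 0.492 ± 0.109 in Control (SD, n = 3), 1.91 ± 0.741 with iohexol, 0.913 ± 0.510 with cisplatin and 13.5 ± 0.610 with vancomycin. CFB rose 26.3-fold with vancomycin (log2 4.71 ± 0.24 SE, adjusted p = 7.35e-14), rank 32 from the top of the genes tested. With iohexol it rose 3.92-fold (log2 1.97 ± 0.41 SE, adjusted p = 0.00546), above 99.2% of the genes tested. It was not tested with cisplatin under the filter. Without the filter its log2 fold change there was 0.86 (adjusted p = 0.222). In the annotation 45.0% of the CFB exons are shared with AL645922.1, a gene listed at 0 in every sample. Likewise 32.0% of the CFI exons are shared with AC126283.2, also at 0 in every sample. Reads on these shared exons were not examined, so the levels of CFB and CFI per kilobase are uncertain.

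The secreted regulators had low counts. CFI, at chr4:109740694-109802179 on the minus strand, had 9, 11 and 10 counts in Control, 4, 8 and 9 with iohexol, 6 in each cisplatin sample, and 54, 62 and 39 with vancomycin. The vancomycin samples stood above all others. CFI rose 4.77-fold with vancomycin (log2 2.25 ± 0.35 SE, adjusted p = 6.72e-06). It was not tested with the other drugs, and without the filter the log2 fold changes were -0.53 with iohexol (adjusted p = 0.623) and -0.89 with cisplatin (adjusted p = 0.304). SERPING1, at chr11:57597387-57614853 on the plus strand, had 0, 4 and 2 counts in Control, 0 in each iohexol sample, 0, 0 and 3 with cisplatin, and 10, 2 and 6 with vancomycin. Each drug group overlapped the controls, the 0 counts with iohexol allow up to 0.213 CPM in a sample, and at this depth no change from Control was detectable. Without the filter, SERPING1 was called between iohexol and vancomycin (adjusted p = 0.00430, edgeR), and against Control its adjusted p with vancomycin was 0.325. In the vancomycin samples RNA of C1 inhibitor stood at 0.135 to 0.626 CPM and that of C1R at 132 to 152 CPM, and the proteins were not measured.

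Sequence upstream of the transcript start was available from RefSeq (GRCh38.p14) for CFB, CFI, C1R, CD46, CD55 and CD59, and C3, C1S and SERPING1 were not in the table used. The 250 bases before the start are given for the 4 of these genes that were DEGs in at least 1 comparison with Control, in the direction of transcription, 5′ to 3′. The gene spans of GENCODE release 29, given with each gene, hold the whole windows of CFB and CD55 and part of those of C1R and CFI. The start meant here is that of the RefSeq transcript. Capitals mark matches, on either strand, to letters bound by factor families known for complement promoters, namely NF-kB (GGG and TTCC with 3 bases between them), C/EBP (TTGCNNNAA), STAT (TTCNNNGAA), the interferon-stimulated response element (ISRE, TTTC and TTTC with 2 bases between them) and AP-1 (TGANTCA). The windows lie at chr6:31945845-31946094 for CFB and chr1:207321428-207321677 for CD55 on the plus strand, and at chr12:7092446-7092695 for C1R and chr4:109802000-109802249 for CFI on the minus strand.
CFB: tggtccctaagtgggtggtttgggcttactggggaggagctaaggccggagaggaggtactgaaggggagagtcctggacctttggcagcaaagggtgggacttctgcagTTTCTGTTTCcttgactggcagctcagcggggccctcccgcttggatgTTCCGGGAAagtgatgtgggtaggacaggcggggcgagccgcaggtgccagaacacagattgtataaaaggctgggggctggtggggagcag
C1R: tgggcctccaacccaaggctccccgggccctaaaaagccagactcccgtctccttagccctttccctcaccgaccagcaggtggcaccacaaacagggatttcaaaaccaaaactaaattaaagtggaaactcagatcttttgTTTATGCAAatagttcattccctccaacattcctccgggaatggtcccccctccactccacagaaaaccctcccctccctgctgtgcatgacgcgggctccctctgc
CFI: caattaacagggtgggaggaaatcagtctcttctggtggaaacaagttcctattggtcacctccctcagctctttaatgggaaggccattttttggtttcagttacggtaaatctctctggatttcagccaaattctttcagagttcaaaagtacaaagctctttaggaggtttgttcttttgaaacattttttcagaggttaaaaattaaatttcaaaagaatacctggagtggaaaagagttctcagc
CD55: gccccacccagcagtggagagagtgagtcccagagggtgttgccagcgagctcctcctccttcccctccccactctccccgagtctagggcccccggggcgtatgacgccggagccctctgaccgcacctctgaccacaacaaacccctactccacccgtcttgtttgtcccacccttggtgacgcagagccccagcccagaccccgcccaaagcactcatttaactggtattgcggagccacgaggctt
The CFB window held a STAT match that begins 92 bases before the start and an ISRE match at 140 bases, and the C1R window a C/EBP match on the opposite strand at 107 bases. CD59, whose window is not shown, held a STAT match at 128 bases, and the windows of CFI, CD46 and CD55 held none of the 5 motifs. RefSeq gave 2 windows for C1R, 2 for CD46 and 4 for CD59, and only the first of each was read for these matches. Of 35116 promoter windows in the table, 6.57% held the STAT letters, 3.02% the ISRE letters, 7.81% the C/EBP letters, 5.67% the NF-kB letters and 6.57% the AP-1 letters. The marked matches do not overlap each other, and a match is a description of the sequence only.

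**Figure D1:**
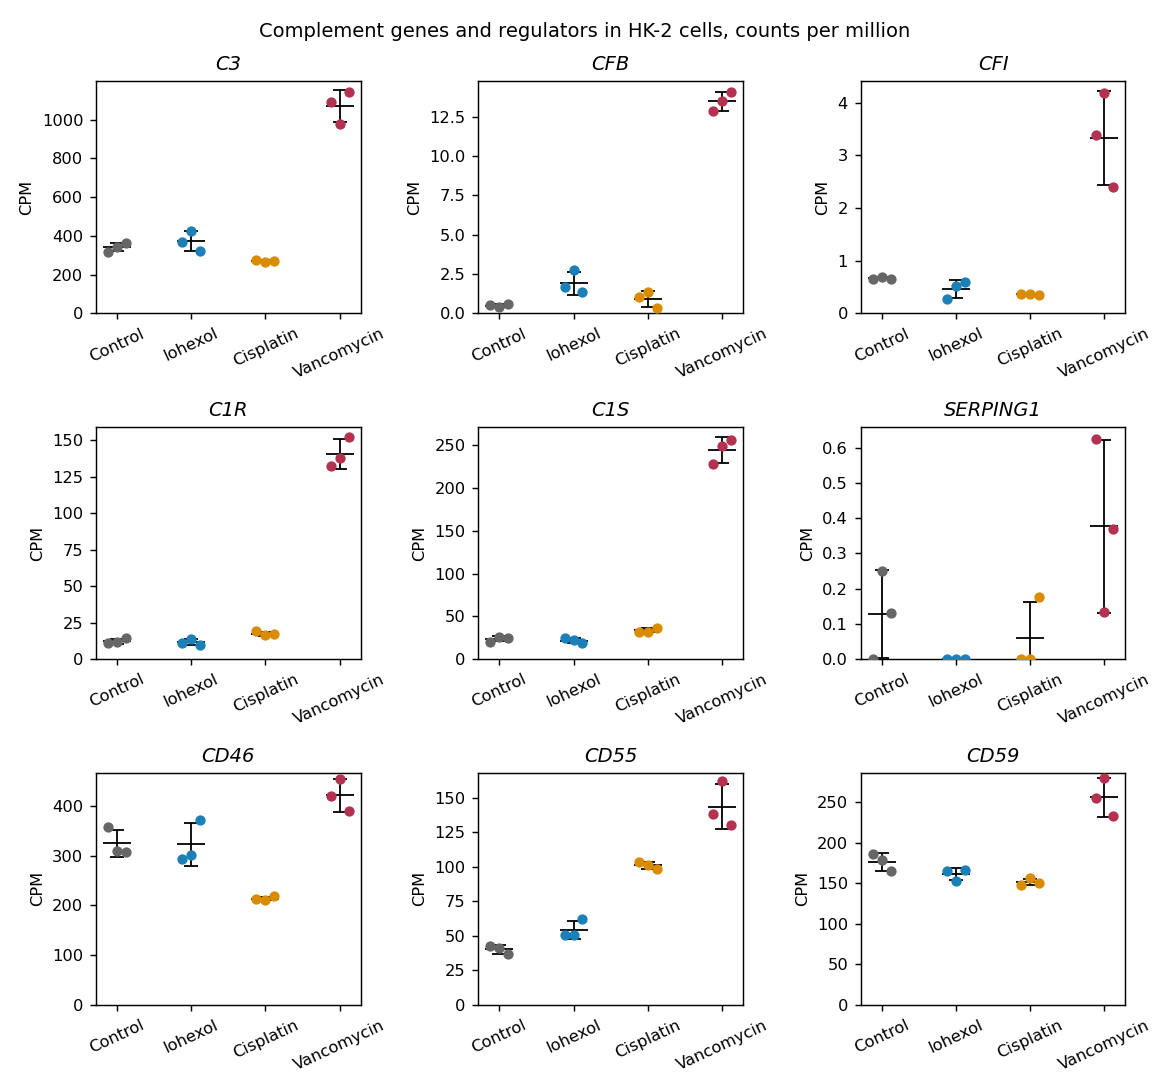
Level of each of the 9 genes in the 12 samples, in CPM, in a panel for each gene whose axis starts at 0, with a point for each sample and a bar for the mean ± SD of the 3 samples. The vancomycin points lie above the control points in 8 panels, and for SERPING1, with 10, 2 and 6 counts with vancomycin, the vancomycin and control points overlap.

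Of the membrane-bound regulators, CD55 changed most and was the only member called higher with each drug, though CFB and CFI were not tested with all of them. It lies at chr1:207321376-207386804 on the plus strand, 365252 bases before CD46 in the regulators cluster of that chromosome. CD55 was at 42.9, 41.1 and 36.8 CPM in Control, at 50.9, 50.5 and 62.0 with iohexol, at 104, 101 and 98.5 with cisplatin, and at 138, 162 and 130.3 with vancomycin. The 4 groups did not overlap and stood in that order. CD55 rose 3.46-fold with vancomycin (log2 1.79 ± 0.10 SE, adjusted p = 3.79e-13), 2.51-fold with cisplatin (log2 1.33 ± 0.08 SE, adjusted p = 9.89e-11) and by log2 0.45 ± 0.11 SE with iohexol (adjusted p = 0.0146). The call with iohexol was lost without Control replicate 2 (log2 0.45, adjusted p = 0.0688) or Control replicate 3 (log2 0.37, adjusted p = 0.0890).

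CD46, at chr1:207752057-207795513 on the plus strand, was at 357, 310.4 and 307 CPM in Control, at 294, 302 and 373 with iohexol, at 212, 212 and 218 with cisplatin, and at 420.2, 455 and 389.6 with vancomycin. The cisplatin samples were the lowest and the vancomycin samples the highest, and the iohexol samples surrounded the controls. CD46 decreased by 0.60 on the log2 scale with cisplatin (± 0.07 SE, adjusted p = 4.61e-07) and rose by 0.33 ± 0.09 SE with vancomycin (adjusted p = 0.00286). With iohexol the difference was 0.01 (95% interval -0.22 to 0.24). By library totals alone the decrease with cisplatin was 0.38 on the log2 scale and was still called.

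CD59, at chr11:33703010-33736491 on the minus strand, was at 186, 178 and 165 CPM in Control, at 165, 153 and 166 with iohexol, at 148, 156 and 151 with cisplatin, and at 256, 279.9 and 233 with vancomycin. The cisplatin samples lay just below the controls, the vancomycin samples above them, and the iohexol samples overlapped them. CD59 rose by 0.49 ± 0.09 SE on the log2 scale with vancomycin (adjusted p = 5.7e-05) and decreased by 0.22 with cisplatin (± 0.06 SE, adjusted p = 0.00687). By library totals alone the difference with cisplatin was -0.000963 on the log2 scale (adjusted p = 0.991). With iohexol it was -0.11 (95% interval -0.30 to 0.08).

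The makeup of the membrane-bound RNA, which does not depend on the scaling between libraries, differed between groups. Per kilobase of exon, CD55 made up 11.1% ± 0.423 (SD, n = 3) of the summed level of CD46, CD55 and CD59 in Control, 14.9% ± 0.227 with iohexol, 30.4% ± 0.800 with cisplatin and 24.9% ± 0.709 with vancomycin. CD46 made up 61.0% ± 1.23 in Control, 59.8% ± 1.89 with iohexol, 43.6% ± 0.771 with cisplatin and 49.7% ± 0.647 with vancomycin. CD59 stayed between 25.3% and 27.9% in the group means. The CD55 shares of the 4 groups did not overlap, whereas the summed level of the 3 regulators was 61.2 ± 4.58 CPM per kilobase in Control, 61.9 ± 6.44 with iohexol, 56.3 ± 0.164 with cisplatin and 97.4 ± 8.75 with vancomycin.

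**Figure D2:**
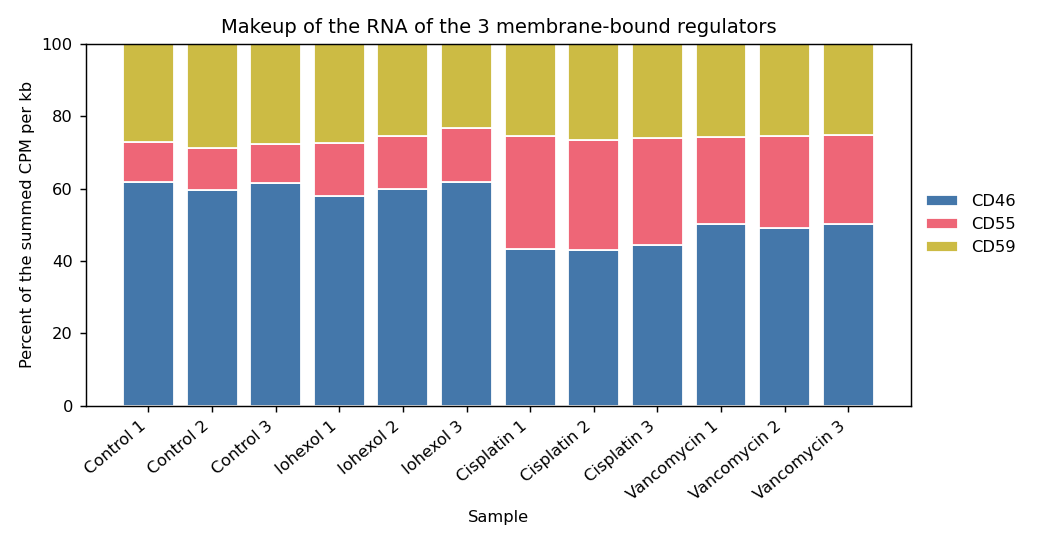
Percent of the summed CPM per kilobase of CD46, CD55 and CD59 that each gene held in each of the 12 samples. The CD55 part grows from 10.8% to 11.6% in the control samples to 29.6% to 31.2% in the cisplatin samples, and the CD46 part is correspondingly smaller there.

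The level of the secreted members, summed per kilobase over C3, CFB, CFI, C1R, C1S and SERPING1, was 47.0 ± 3.34 CPM per kilobase in Control (SD, n = 3), 50.4 ± 6.95 with iohexol, 41.0 ± 0.845 with cisplatin and 193.8 ± 11.7 with vancomycin. C3 held 87.2% ± 0.748 of it in Control, 88.4% ± 0.529 with iohexol, 79.4% ± 0.334 with cisplatin and 66.3% ± 2.03 with vancomycin. Per kilobase, the order of the mean levels in Control was C3 (41.0 CPM per kilobase), CD46 (37.3), CD59 (17.0), CD55 (6.81), C1S (3.68), C1R (2.09), CFI (0.137), CFB (0.0985) and SERPING1 (0.0354). The samples of C3 and CD46 overlapped in Control and with iohexol. With vancomycin the order was C3 (129), CD46 (48.4), C1S (37.8), CD59 (24.7), CD55 (24.3), C1R (23.9), CFB (2.69), CFI (0.682) and SERPING1 (0.105), with CD59, CD55 and C1R overlapping. C1S and C1R thus stood among the membrane regulators in the vancomycin samples, and below all of them in Control.

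Direct contrasts between drugs were taken from a fit of all 12 samples. Each of the 8 members tested was higher with vancomycin than with iohexol, where 29.0% of all genes were called in that direction, and than with cisplatin, where 34.7% were. The log2 difference, iohexol minus vancomycin, ran from -0.38 for CD46 (adjusted p = 0.00139) to -3.58 for C1R (adjusted p = 1.36e-14), and the difference, cisplatin minus vancomycin, from -0.50 for CD55 (adjusted p = 0.000126) to -3.88 for CFB (adjusted p = 5.03e-10). The smallest of each was not called by library totals alone, with -0.18 for CD46 (adjusted p = 0.0972) and -0.17 for CD55 (adjusted p = 0.116). Between iohexol and cisplatin, 3 members were higher with iohexol and 3 with cisplatin, where 54.0% of all genes were called. C3 (log2 0.46, adjusted p = 0.000275), CD46 (0.59, adjusted p = 1.77e-05) and CFB (1.08, adjusted p = 0.0136) were higher with iohexol. C1R (-0.58, adjusted p = 0.000931), C1S (-0.63, adjusted p = 7.33e-05) and CD55 (-0.89, adjusted p = 2.47e-07) were higher with cisplatin. The CFB call was lost without Iohexol replicate 2 (adjusted p = 0.123) or Cisplatin replicate 3 (adjusted p = 0.0864). For CD59 the interval of the difference was -0.08 to 0.26, and for CFI -0.64 to 1.35. In this fit CFI passed the filter only through the vancomycin samples (39 to 62 counts), and CFB only through the iohexol or vancomycin samples. These are the groups in which the genes were high, so the calls of CFI and CFB between drugs are not independent of the filter.

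The other genes of the pathway were taken as 55 components, regulators and receptors beyond the 9 members, of which 19 passed the filter in at least 1 comparison with Control. C1QA and C1QC, which encode chains of C1q, and C6 had 0 counts in every sample, and C1QB at most 1. The pore components C7, C8A, C8B and C9 had at most 9. With vancomycin 11 of 19 genes tested rose and 3 fell, with a median log2 fold change of 0.97, where 29.0% of all genes were called higher and 28.8% lower. With cisplatin 5 of 16 rose and 5 fell (median 0.07), where 29.2% of all genes were called higher and 30.6% lower. With iohexol 4 of 18 rose and 2 fell (median 0.38), where the shares were 11.2% and 9.77%. Some of these genes did not pass the filter on the samples of their lower group alone, so their calls are not independent of it. They were C4A, C4B, CFP and C3AR1 among those that rose with vancomycin, SUSD4 among those that fell, and C4A, C5, COLEC12 and SUSD4 among those that fell with cisplatin. The medians over all genes tested were -0.01, 0.01 and 0.01.

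Among the components, vancomycin raised CFP (log2 2.96), which encodes properdin, the stabilizer of the alternative convertase, the C1R-like protease C1RL (1.37), the scavenger collectin COLEC12 (1.35) and C4A (2.50) and C4B (2.79), the substrate of C1s. C4A and C4B are near-identical copies, so the split of reads between them is uncertain. C5 (0.06), C8G (-0.55) and MASP2 (-0.43) were not called with vancomycin. With cisplatin C5 (-2.13), COLEC12 (-2.16) and C4A (-1.81) fell and C8G (1.07) rose. With iohexol C1RL rose (0.68).

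Of the other regulators, vancomycin raised THBD (2.39), which encodes thrombomodulin, PROS1 (1.33), which encodes protein S, a partner of C4b-binding protein and clusterin (CLU, 0.97), and lowered the membrane inhibitor SUSD4 (-3.44). With cisplatin CLU (0.84) and THBD (0.56) rose, and SUSD4 (-2.09) and PROS1 (-0.61) fell. With iohexol CLU (0.60) and PROS1 (0.60) rose and THBD (-1.05) fell. Of the receptors, ITGAX (3.14), a chain of complement receptor 4, and C3AR1 (1.10), the receptor of C3a, rose with vancomycin, and ITGB2 (-0.95) and C1QBP (-0.97) fell. C5AR1, the receptor of C5a, rose with iohexol (1.59) and with cisplatin (1.03), and its value with vancomycin was -0.23, which was not called. ITGB2 rose with cisplatin (1.07) and C1QBP fell with iohexol (-0.37), and ITGAM with vancomycin was at 0.76 and not called. No called gene of these 3 lists changed direction with factors of relative log expression or with library totals alone.

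**Figure D3:**
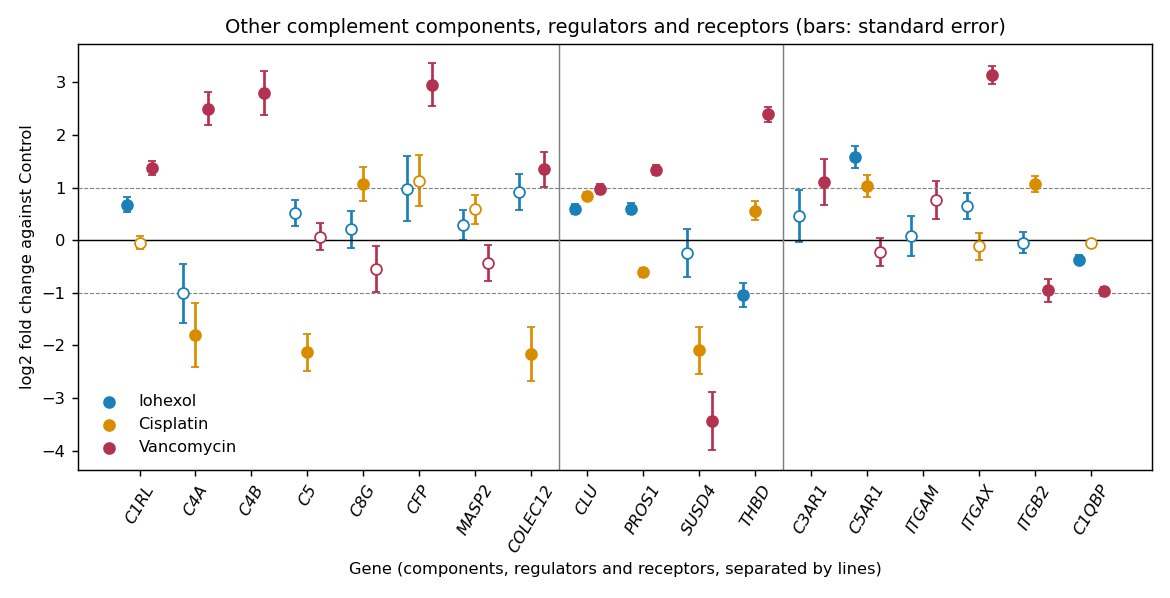
Log2 fold change against Control, with bars for the SE, of 18 other complement genes that passed the filter, with iohexol, cisplatin and vancomycin, with filled points where the adjusted p was under 0.05. The vancomycin points run from -3.44 for SUSD4 to 3.14 for ITGAX, and 10 of the 18 are filled and above 0.

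CD55 and CD59 need a GPI anchor, so the genes of anchor synthesis and transfer were examined with them. Of 28 such genes 27 were tested. With vancomycin 6 rose and 10 fell (median log2 fold change -0.13), with cisplatin 7 rose and 6 fell (median -0.05), and with iohexol 2 rose and 1 fell (median -0.00109). The shares of all genes called higher and lower were 29.0% and 28.8% with vancomycin, 29.2% and 30.6% with cisplatin, and 11.2% and 9.77% with iohexol, beside which these counts are read. The 3 with the smallest p with vancomycin were DPM3 (2.11) and DPM2 (0.88), subunits of dolichol-phosphate mannose synthase, and PIGW (-1.24). With cisplatin they were PIGN (-1.27), PIGU (-1.32) and PIGV (1.14), and with iohexol PGAP2 (0.52), PIGL (-0.54) and PIGV (0.48).

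Of 16 other proteins with a GPI anchor, vancomycin raised 9 and lowered 4 of 15 tested (median 0.48), cisplatin raised 5 and lowered 9 of 14 (median -0.51), and iohexol raised 4 and lowered 5 of 15 (median -0.18). All genes were called higher and lower at 29.0% and 28.8%, 29.2% and 30.6%, and 11.2% and 9.77% with the 3 drugs in that order. The glypican GPC6 rose with vancomycin (2.52) and fell with cisplatin (-5.83). GPC6 had 2 to 14 counts with cisplatin and passed the filter there only through the control samples. THY1, called higher with iohexol and cisplatin, passed it only through the drug samples. These calls are therefore not independent of the filter. GPC4 fell with vancomycin and cisplatin, by 1.57 and 1.35 on the log2 scale. The urokinase receptor PLAUR rose with vancomycin (2.46) and fell with iohexol (-1.16), CD24 rose (1.16) and NT5E fell (-1.36) with iohexol, and EFNA5 fell with cisplatin (-2.20).

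Of 12 genes for transcription factors known to act at complement promoters, all were tested, and vancomycin raised 9 and lowered 1 (median 0.58), cisplatin raised 6 and lowered 3 (median 0.39), and iohexol raised 2 and lowered 5 (median -0.14), against the same shares of all genes, 29.0% and 28.8%, 29.2% and 30.6%, and 11.2% and 9.77%. With vancomycin the smallest p belonged to FOS (4.23), CEBPB (1.73) and CEBPD (1.30), whose products bind AP-1 and C/EBP letters. With cisplatin FOS (2.96) and STAT3 (0.58) rose, and with iohexol NFKB1 (-0.39) and RELB (-0.58) fell. These are RNA levels of the factors, and binding was not measured. Scaling by library totals alone reversed no called gene of the GPI and factor lists, and it lost the calls of PIGL, the carboxypeptidase gene CPM, JUN and IRF1 with iohexol, PIGT and NFKB1 with cisplatin and NFKB2 with vancomycin.

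The genes most like each member were those with the highest Pearson r of log2 CPM over the 12 samples, among 14699 genes with a mean of at least 1 CPM. The closest genes to C1R were C1S (r = 0.995) and the pseudogene RPL41P5 (0.995), and the closest to C1S were RPL41P5 (0.997) and C1R. For C3 they were ZSCAN31 (0.992) and SEZ6L2 (0.991), for CFB SPON2 (0.975) and UAP1L1 (0.973), and for CFI PDIA3P1 (0.985) and IFI44L (0.984). For the membrane regulators they were ACTR3 (0.987) with CD46, MAP1LC3B (0.984) and GLA (0.982) with CD55, and RAB1A (0.979) and UBE2E3 (0.979) with CD59. Between members r ran from 0.129 for CD46 and CD55 to 0.995 for C1R and C1S. The 12 points are 4 groups of 3 samples and share treatments, so they are not independent, and no test was made.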

How the data were processed

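The authors deposited whole-number read counts per gene, without normalization, for 58735 genes in 12 samples. The submitters' processing notes name CASAVA 1.8, fastp, HISAT2 2.0.5, featureCounts 1.5.0-p3 and DESeq2 1.20.0, and the paper names the Limma package for DEGs. The genome build and the strand setting were not given in the sources used here. All identifiers were in GENCODE release 29 (GRCh38), and 58690 had the same position. The genes whose exons overlap those of members lie on the same strand as the member. Reads on the shared exons could therefore not be told apart under any strand setting.

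Counts were analysed with edgeR 4.0.16 in R 4.3.3 (TMM factors, filterByExpr at min.count 10 and min.total.count 15, quasi-likelihood test), in a fit of 3 drug and 3 control samples for each drug and in a fit of all 12 for contrasts between drugs. SE is the size of the log2 fold change divided by the square root of F. CPM uses totals times the TMM factors of the 12 samples, which were 0.885 to 1.13, and levels per kilobase use the deposited gene lengths. Totals were 14057282 to 18177109, and the floor of 3 counts covers counting error only. Samples were grouped by the labels. No replicate pair looked like 1 library deposited more than once (chi-square over its degrees of freedom at least 2.28).

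The 9 members, the lists and the tests were chosen with earlier results of these data known. Genes named were all members, the other complement genes that passed the filter, the 3 genes of smallest p in each remaining list and comparison, and the 2 genes most like each member, and some genes that this rule covers are not reported here. Genes whose calls another scaling lost, and markers that moved, were named after their values were seen. On simulated counts of vancomycin against Control, 25 of 48 genes changed by 0.5 on the log2 scale were called. So were 35 of 49 changed by 1, 49 of 49 by 2 and 49 of 49 by 4, with 6 other genes called of 15507 tested. For the same changes, iohexol against Control gave 20 of 50, 39 of 50, 45 of 47 and 49 of 49, with 23 others of 15408. Cisplatin against vancomycin gave 23 of 46, 31 of 48, 41 of 48 and 49 of 50, with 10 others of 16542. Alternatives were DESeq2 1.42.0, other scaling factors, other filters, the replicate number as a block, 1 fit for all groups, the DEG thresholds and leaving out each sample. Adding the counts of overlapping genes was chosen after seeing the data. Figures were drawn with matplotlib 3.10.9.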

Additional observations from a re-analysis of the deposited data

Results flagged for a closer look

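C3, CD46 and CD59 were below Control with cisplatin and above it with vancomycin, and the direct contrast of the drugs passed edgeR's test for each. Genes picked for opposite directions against the same controls must differ between the drugs, so this contrast gives the size of the difference and is no further support. The log2 difference, cisplatin minus vancomycin, was -1.98 for C3 (adjusted p = 5.52e-13), -0.98 for CD46 (adjusted p = 1.41e-08) and -0.75 for CD59 (adjusted p = 8.41e-08). By library totals alone the cisplatin values against Control were -0.12 for C3, -0.38 for CD46 and -0.000963 for CD59, and those of C3 and CD59 were no longer called. Groups of 3 samples were too small for a test of outlying samples.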

How the results depend on the processing

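Of 759 member values under an alternative, 729 kept their direction and their side of the threshold. With iohexol 2 members were called, against 1 under the replicate block, 1 under the DEG thresholds and 1 to 3 without single samples. With cisplatin 6 were called, against 1 under the DEG thresholds, 4 by library totals alone and 6 to 7 without single samples. The reversals with iohexol were in uncalled values near 0. CD46 (0.01) was -0.000713 with DESeq2, -0.000697 with factors of relative log expression, -0.0270 without the filter, -0.00646 in the fit of all groups and -0.101 to 0.0827 without single samples. C1R (-0.05) was 0.0214 by library totals alone, -0.206 to 0.0675 without single samples and 0.319 with the counts of the overlapping gene added. CD59, iohexol minus cisplatin, was -0.0374 by library totals alone. That scaling also moved the split of cisplatin DEGs from 1210 higher and 1384 lower to 1849 and 997, and 14 of 36 group levels of members by more than their SD. The cause was not tested.

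Same-numbered samples did not deviate together (mean r -0.0209 over 18 pairs, from -0.184 to 0.103). Over the 36 pairs of other numbers the mean r was 0.0106, from -0.192 to 0.294. No pairing by number was seen, though with 3 samples in a group a weak one could be missed. The replicate block changed 1 of 45 member calls, CD55 with iohexol (adjusted p = 0.0558).

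CFB, CFI and SERPING1 are limited by depth, with 0 to 11 counts in each control sample.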
